A study of Mus musculus with 23 samples.

Results

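The genes described here lie on either side of Grin2b on mouse chromosome 6. The question they bear on is whether a knock-in allele of Grin2b comes with altered expression of its neighbours. They were taken from a list of 34 named neighbours lying between Magohb and Pde3a (chr6:131284388-141507448, GRCm38), with the requirement of a mean of at least 10 normalised reads over all libraries. Of these, 32 had a row in the table and all 32 passed that minimum, among 17256 genes tested and 18848 in the table. The other 2, Gsg1 and Plbd1, were not analysed here. All 32 genes lie in this stretch, but position alone does not give the list. Other measured genes of the same stretch are not on it and are described further below. The list was chosen with earlier results of these data known.

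Brain RNA of male mice of the C57BL/6J strain, aged P17 (17 days after birth), was sequenced. There were 6 libraries of Grin2b heterozygous mice treated with DCS (HT DCS), 6 of Grin2b heterozygous mice given vehicle (HT vehicle), 5 of wild-type mice treated with DCS (WT DCS) and 6 of wild-type mice given vehicle (WT vehicle). The heterozygous mice carry 1 allele with the C456Y change, which replaces a cysteine of the GluN2B subunit by tyrosine. The labels write DCS without spelling it out; in NMDA receptor work the letters commonly stand for D-cycloserine, which binds where glycine does. They name brain with no region, and give neither how the allele was made nor how far it was backcrossed. Nothing in them ties 1 library to 1 mouse, so the p-values reflect spread between libraries, which may be technical.

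NMDA receptors are glutamate-gated channels built of GluN1 and GluN2 subunits, and GluN2B, the product of Grin2b, is prominent in the young forebrain. A change made in 1 allele can touch neighbouring genes in cis, for example where a construct disturbs an enhancer or a domain boundary. Flanking chromosome also travels with a targeted allele during breeding, so that neighbours can keep variants of the strain in which the allele was made; such neighbours are called passenger genes. In a heterozygote, loss of 1 of 2 equally active alleles without compensation would give a log2 difference of -1 in the summed transcripts of both alleles, which is what this table measures.

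The sequence shown is the one place where 2 of the genes described overlap each other. Hebp1 on the minus strand and Fam234b on the plus strand share 46 annotated bases at their heads, marked by capitals, at chr6:135197977-135198022; the run printed is the plus strand of chr6:135197937-135198062 from the RefSeq promoter table (GRCm38.p6).
Hebp1 and Fam234b: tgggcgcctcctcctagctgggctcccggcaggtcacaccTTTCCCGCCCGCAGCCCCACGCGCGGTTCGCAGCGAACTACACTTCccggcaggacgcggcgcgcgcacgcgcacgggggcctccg
The RefSeq table places the promoter window of Hebp1 further inside the gene, at chr6:135168166-135168465, so the overlap concerns only the longer GENCODE form. That table held a promoter for 24 of the 34 listed genes.

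Library totals were 32.3 M to 33.5 M normalised reads, and steps between low values gave an estimated unscaled depth of 25.6 M to 37.5 M reads. Markers of neurons, astrocytes, oligodendrocytes, microglia, endothelium, pericytes, meninges, choroid plexus and blood were read in every library, and the sum of 10 neuronal markers lay between 211300 and 225600 in HT DCS, 215200 and 225500 in HT vehicle, 217600 and 230100 in WT DCS, and 218000 and 223700 in WT vehicle. The sum of 10 oligodendrocyte and myelin markers had lower means in HT, at 416900 in HT DCS, 455000 in HT vehicle, 480200 in WT DCS and 489100 in WT vehicle, and its lowest library, at 323900, was of HT DCS. Endothelial sums averaged 8038, 8306, 7518 and 7847 in the same order of groups, and pericyte and smooth muscle sums 8342, 8301, 7802 and 7492. Microglia sums averaged 5120, 5068, 4631 and 4630, and astrocyte sums 148700, 151500, 146600 and 145700. Each of these lists thus had higher means in HT. Hox genes mark caudal hindbrain. The sum of 11 Hox genes ran between 34.4 and 298.5 normalised reads in HT DCS, 92.2 and 279.6 in HT vehicle, 152.7 and 337.3 in WT DCS, and 153.7 and 343.2 in WT vehicle, with Hoxa2, Hoxa5, Hoxb2 and Hoxd4 at 0 in at least 1 library. The Hox sums averaged 169.9 in HT DCS, 183.8 in HT vehicle, 226.6 in WT DCS and 277.2 in WT vehicle. Their means were thus lower in HT. The part of these marker differences in the values below was not tested.

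Grin2b itself (ENSMUSG00000030209, chr6:135713233-136173511, minus strand) was read at like levels in both genotypes. It had a lowest, median and highest normalised read count of 14620, 19020 and 20960 in the 12 HT libraries, against 15210, 18060 and 21720 in the 11 WT libraries. The ranges overlapped over nearly their whole width, with means of 18610 ± 1830 (SD, n = 12) in HT and 18300 ± 1869 (SD, n = 11) in WT. The log2 difference of HT from WT over both treatments was 0.021 ± 0.062 (SE; 95% limits -0.11 and 0.15; limma, adjusted p = 0.961). The lowest HT library was HT vehicle replicate 6, and without it the difference was 0.053.

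None of the 32 flanking genes passed the test between HT and WT over both treatments. With limma, 0 of 32 passed an adjusted p of 0.05, where 0% of all genes tested passed as well, and 1 of 32 had an unadjusted p under 0.05, a share of 3.12% against 7.17% of all genes tested. The ranges of the 12 HT and 11 WT libraries were separate for 0 of 32 flanking genes, against 0.0058% of all genes. The means were higher in HT for 14 and lower for 18, and the median log2 difference was -0.011, against -0.0008 over all genes tested. Single differences ran between -0.15 (Erp27) and 0.11 (Atf7ip), and the median size without sign was 0.022, against 0.040 over all genes. It was 0.14 over the 14 other measured genes of the region, described further below. These sets were not matched for read level.

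The intervals bound how large a difference could have gone unseen. For HT against WT over both treatments, the 95% interval, taken gene by gene, lay inside ±0.25 on the log2 scale for 27 of 32 genes, which is 18.9% above or 15.9% below WT. The other 5 were Apold1, Atf7ip, Dera, Erp27 and Mgst1, and their intervals lay inside ±0.5, or 41.4% above and 29.3% below WT. All 32 intervals left out a log2 difference of -1 or 1. Within a single treatment, with fewer libraries, 30 of 32 intervals lay inside ±0.5 both for HT vehicle against WT vehicle, where Apold1 and Erp27 reached further, and for HT DCS against WT DCS, where Dera and Erp27 did. All 32 lay inside ±1 in those comparisons too. The values are on the log2(value + 1) scale, which understates the change of a low gene such as Erp27.

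**Figure D1:**
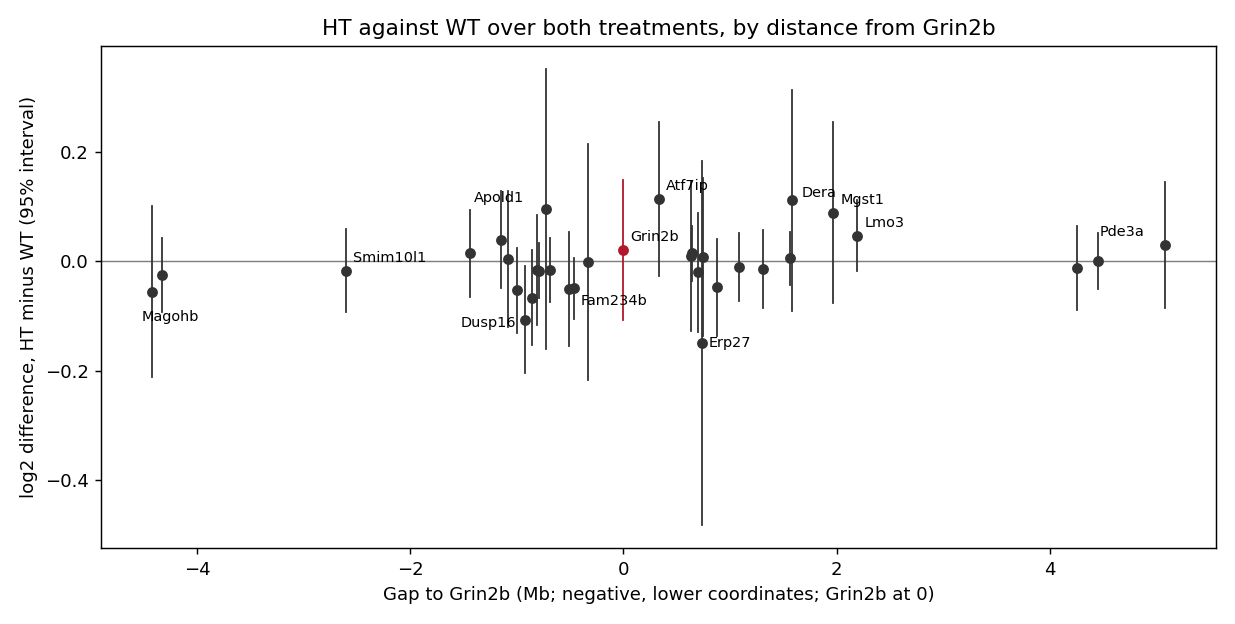
Log2 difference of HT from WT over both treatments (y axis, points, with 95% intervals as lines) for the 32 flanking genes (black) and Grin2b (red), against the gap to Grin2b in Mb (x axis). Points scatter about 0 at every distance, between -0.15 (Erp27) and 0.11 (Atf7ip), and of these 33 intervals only that of Dusp16 leaves out 0.

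The differences were also grouped by distance from Grin2b. The 16 genes under 1 Mb away had a median log2 difference of -0.016, with 5 higher and 11 lower in HT. The 9 genes at 1 to 2 Mb had a median of 0.0056, with 6 higher and 3 lower, and the 7 genes over 2 Mb away had -0.013, with 3 higher and 4 lower. On the lower-coordinate side, 4 of 16 genes were higher in HT and 12 lower, at a median of -0.017; on the other side, 10 of 16 were higher and 6 lower, at a median of 0.0068. No test was made of either split.

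Of the flanking genes described, the nearest on the lower-coordinate side were Hebp1, Fam234b and Emp1. Emp1 (chr6:135362545-135383173), which encodes an epithelial membrane protein, lies 0.33 Mb from Grin2b, counted as the gap to the nearer edge of that gene. Its lowest, median and highest values were 51.1, 63.4 and 82.6 in HT and 47.7, 64.9 and 83.0 in WT libraries. The 2 sets of libraries covered the same range, and the log2 difference was -0.0015 ± 0.105 (SE; limma, adjusted p = 0.999). Hebp1 (chr6:135137522-135198022), whose product binds haem, had 327.3, 403.0 and 457.6 in HT, against 366.4, 409.3 and 474.5 in WT. Its log2 difference was -0.050 ± 0.051 (SE; limma, adjusted p = 0.875). It was -0.022 without HT DCS replicate 6, which held the lowest value, and -0.025 without WT vehicle replicate 2, which held the highest. Fam234b is described with the smallest p below.

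On the higher-coordinate side the nearest of the flanking genes described were Atf7ip, H2afj and Wbp11. Other measured genes outside the list can lie nearer, such as Gm26653, which overlaps Grin2b. H2afj (chr6:136808244-136810074), a histone H2A variant gene, had a lowest, median and highest value of 802.2, 987.6 and 1113 in HT and 827.0, 931.0 and 1205 in WT. The log2 difference was 0.010 ± 0.066 (SE; limma, adjusted p = 0.984). Its sign turned in 7 of 23 fits that left out 1 library, as far as -0.017 without HT vehicle replicate 6. Wbp11 (chr6:136813654-136828233), a splicing factor gene, had 2777, 3008 and 3172 in HT, against 2808, 2948 and 3078 in WT. It was among the steadiest genes of the region, with a log2 difference of 0.015 ± 0.024 (SE; limma, adjusted p = 0.919) that lay between 0.0062 and 0.025 without any 1 library.

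**Figure D2:**
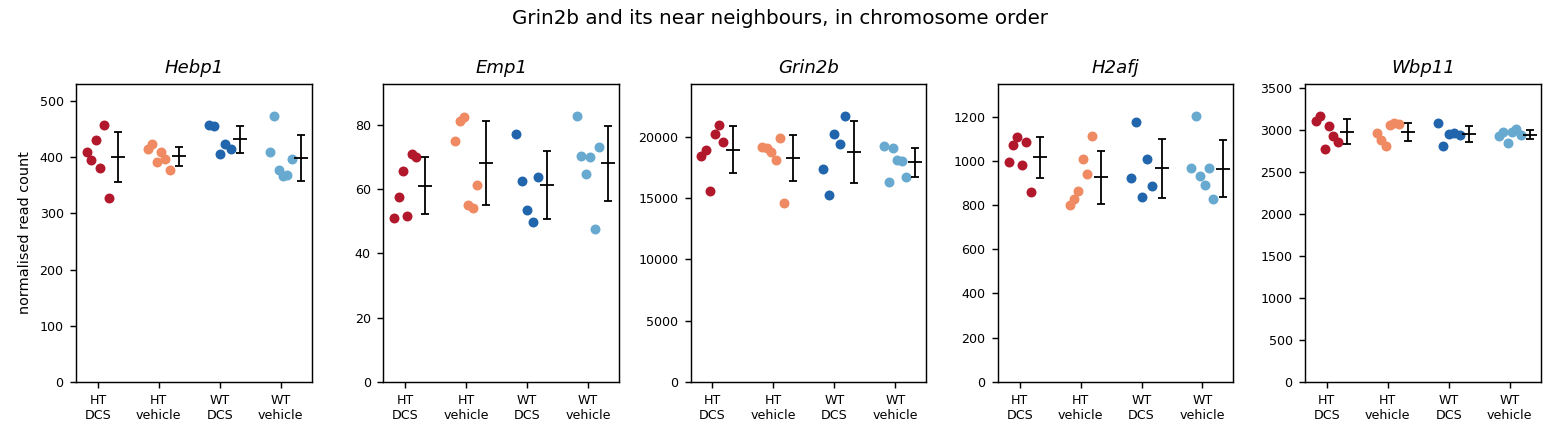
Normalised read counts (y axis, from 0) of Grin2b and 4 of the 6 nearest flanking genes described, in each library (points) of the HT DCS, HT vehicle, WT DCS and WT vehicle groups, with mean and SD (bars). The groups overlap in every panel, and HT vehicle replicate 6 is the low point of Grin2b at 14620.

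Of the flanking genes described, the smallest p was that of Dusp16 (chr6:134715468-134792625), which encodes a phosphatase of the stress kinases JNK and p38. It had 450.0, 548.2 and 629.2 in HT and 520.4, 571.5 and 626.8 in WT libraries as lowest, median and highest. Of the 12 HT libraries, 10 lay under the WT mean and 4 under every WT library. The log2 difference was -0.11 ± 0.048 (SE), or -7.11%, and did not pass (limma, adjusted p = 0.672). Under DCS, the HT DCS libraries had 450.0, 532.8 and 599.8 as lowest, median and highest, against 564.1, 571.5, 611.6, 615.9 and 626.8 in the 5 WT DCS libraries. Under vehicle, the HT vehicle libraries had 509.2, 554.5 and 629.2, against 520.4, 552.7 and 605.4 in WT vehicle. The log2 difference was -0.20 ± 0.070 (SE) between HT DCS and WT DCS (limma, adjusted p = 0.612) and -0.012 ± 0.066 between HT vehicle and WT vehicle (limma, adjusted p = 0.999); the difference between these 2 values was -0.19 ± 0.096 (limma, interaction, adjusted p = 0.984).

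Fam234b (chr6:135197977-135244955), a transmembrane protein gene 0.468 Mb from Grin2b, had 5297, 6091 and 6240 in HT, against 5765, 6169 and 6552 in WT. Its log2 difference was -0.049 ± 0.028 (SE; limma, adjusted p = 0.757), with 9 of 12 HT libraries under the WT mean. The lowest values were those of HT DCS replicate 6 at 5297 and HT vehicle replicate 6 at 5566. Atf7ip (chr6:136506167-136610862), whose product works with the histone methyltransferase SETDB1 in gene silencing, had 3061, 3604 and 4484 in HT and 2823, 3475 and 4705 in WT. It had the largest positive difference of the 32, at 0.11 ± 0.068 (SE; limma, adjusted p = 0.769), and 9 of 12 HT libraries lay above the WT mean.

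The other 3 of the 6 smallest p belonged to Crebl2, Lmo3 and Borcs5. Crebl2 (chr6:134830154-134858931), a small bZIP protein gene, had 770.0, 871.0 and 1058 in HT, against 825.2, 932.3 and 997.1 in WT, with a log2 difference of -0.066 ± 0.042 (SE; limma, adjusted p = 0.785). Lmo3 (chr6:138362918-138581968), a LIM-only transcriptional cofactor gene active in neurons, had 2777, 3182 and 3344 in HT, against 2686, 3053 and 3181 in WT. Its log2 difference was 0.047 ± 0.032 (SE; limma, adjusted p = 0.804), and 6 of 12 HT libraries lay above every WT library. Without WT DCS replicate 2, the lowest WT library, it was 0.026. Borcs5 (chr6:134639510-134711187), which encodes a subunit of the BORC complex that positions lysosomes, had 689.1, 729.6 and 797.4 in HT, against 669.8, 774.3 and 827.3 in WT, with a log2 difference of -0.053 ± 0.038 (SE; limma, adjusted p = 0.816).

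**Figure D3:**
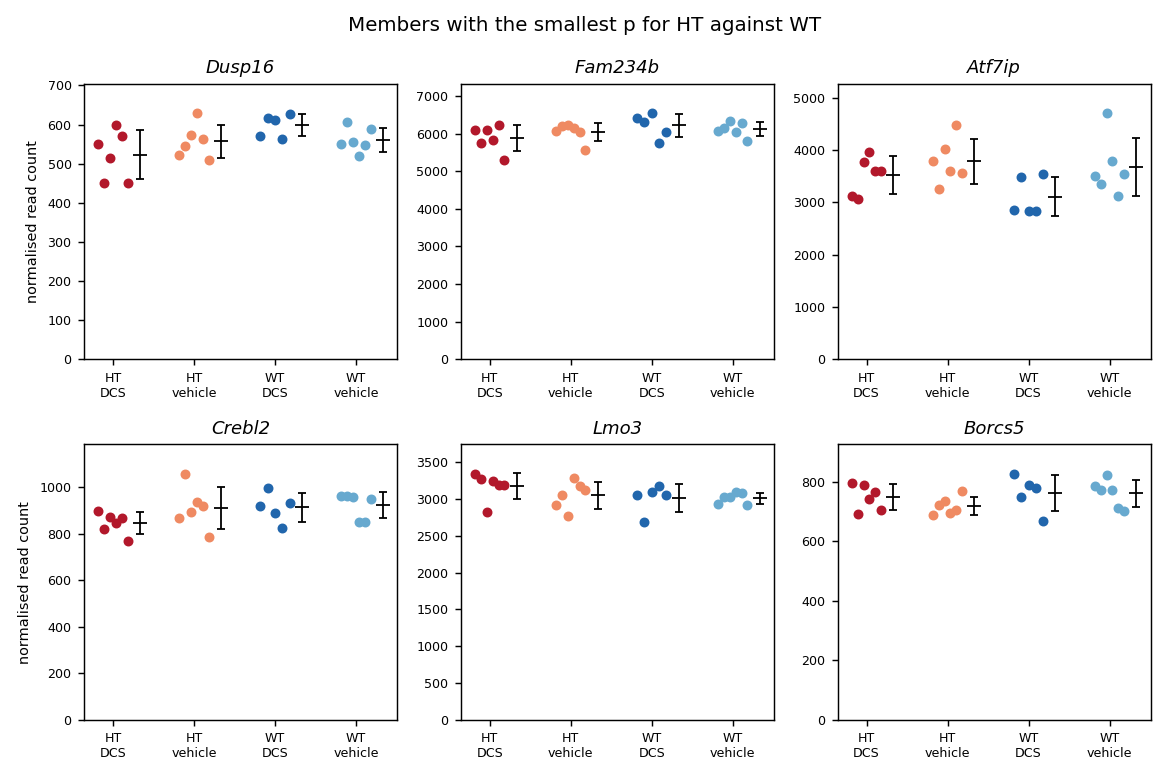
Normalised read counts (y axis, from 0) in each library (points) of the HT DCS, HT vehicle, WT DCS and WT vehicle groups, with mean and SD (bars), for the 6 flanking genes with the smallest p for HT against WT. Dusp16 has the smallest p under DCS of these genes, with means of 522.8 in HT DCS and 598.0 in WT DCS, and the groups overlap in every panel.

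The remaining genes are given by role, with log2 differences of HT from WT over both treatments; none passed the adjusted threshold (limma). Of the 7 genes of gene regulation, 5 were higher and 2 lower in HT. Beside those above, Etv6, an ETS-family repressor gene, stood at 0.015, Ybx3, which encodes a cold-shock domain protein, at -0.025, and Aebp2, a cofactor gene of the Polycomb complex PRC2, at 0.0009. Of the 4 genes of RNA handling, 2 were higher and 2 lower: Magohb of the exon junction complex at -0.056, the RNA helicase gene Ddx47 at -0.016, Strap at 0.0056 and Wbp11 as above. Magohb has the near-identical paralogue Magoh, so its value is uncertain.

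Of the 10 genes of signalling and the cell cycle, 3 were higher and 7 lower in HT. Lrp6, a Wnt co-receptor gene, stood at 0.040, Cdkn1b, which encodes the cell cycle inhibitor p27, at -0.017, and the orphan receptor gene Gpr19 at -0.015. The receptor phosphatase gene Ptpro was at -0.010, the actin regulator gene Eps8 at -0.014, the phosphodiesterase gene Pde3a at 0.031, Plekha5 at -0.013, the Ras-like gene Rerg at -0.047 and Arhgdib at 0.0080. Of the 11 membrane, metabolic and secreted genes, 4 were higher and 7 lower. Dera, an enzyme of deoxyribose breakdown, stood at 0.11, Apold1 at 0.096, the glutathione transferase gene Mgst1 at 0.090, Mansc1 at 0.0044, Smim10l1 at -0.017, Mgp, a secreted inhibitor of calcification, at -0.020, and Erp27, an endoplasmic reticulum protein gene, at -0.15. Scaled by exon length, levels ran from 4.57 normalised reads per kb for Erp27 to 1205 for Strap, with 743.2 for Grin2b. The spread within groups (SD, log2) was between 0.050 for Cdkn1b and 0.351 for Erp27, at a median of 0.108, against 0.120 over all genes tested.

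Each treatment was then taken alone. Between HT vehicle and WT vehicle, 0 of 32 flanking genes passed (limma; 0% of all genes), and 1 had an unadjusted p under 0.05, or 3.12% against 4.22% of all genes. That gene was Erp27, at 5.48, 11.5 and 14.1 as lowest, median and highest in HT vehicle, against 12.6, 15.8 and 19.0 in WT vehicle. Of 6 HT vehicle libraries 4 lay under every WT vehicle library, for a log2 difference of -0.49 ± 0.22 (SE; limma, adjusted p = 0.999). Between HT DCS and WT DCS, 0 of 32 passed (limma; 0% of all genes) and 2 had an unadjusted p under 0.05, Dusp16 and Etv6, or 6.25% against 7.55% of all genes. The ranges of the groups were separate for 0 of 32 genes in both comparisons, against 0.249% of all genes under vehicle and 0.411% under DCS.

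Some genes stood at opposite signs under the 2 treatments. Etv6 (chr6:134035700-134270158) had a lowest, median and highest value of 775.2, 812.3 and 923.2 in HT DCS, against 716.8, 722.6, 793.6, 803.2 and 805.6 in WT DCS, and 6 of 6 HT DCS libraries lay above the WT DCS mean. Under vehicle it had 733.2, 803.7 and 838.1 in HT vehicle, against 769.9, 851.7 and 893.1 in WT vehicle, and each of the 6 HT vehicle values was below the mean of WT vehicle. Its log2 difference was 0.12 ± 0.056 (SE) under DCS and -0.086 ± 0.053 under vehicle, and the interaction was 0.20 ± 0.077 (limma, adjusted p = 0.984). Aebp2 stood the other way round, with means of 1841 in HT DCS and 1924 in WT DCS, and of 1913 in HT vehicle and 1829 in WT vehicle (limma, interaction -0.13 ± 0.050 (SE), adjusted p = 0.984). Over the 32 genes, 0 interactions passed (limma; 0% of all genes) and 3 had an unadjusted p under 0.05, or 9.38% against 4.38% of all genes, the third being Erp27. Without any 1 library this count lay between 2 and 5, with 5 of 32 without HT vehicle replicate 6, where 6.59% of all genes had an unadjusted p under 0.05. The 2 treatments share no libraries, and the plot of one genotype difference against the other shows the 32 genes spread over all 4 quadrants.

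**Figure D4:**
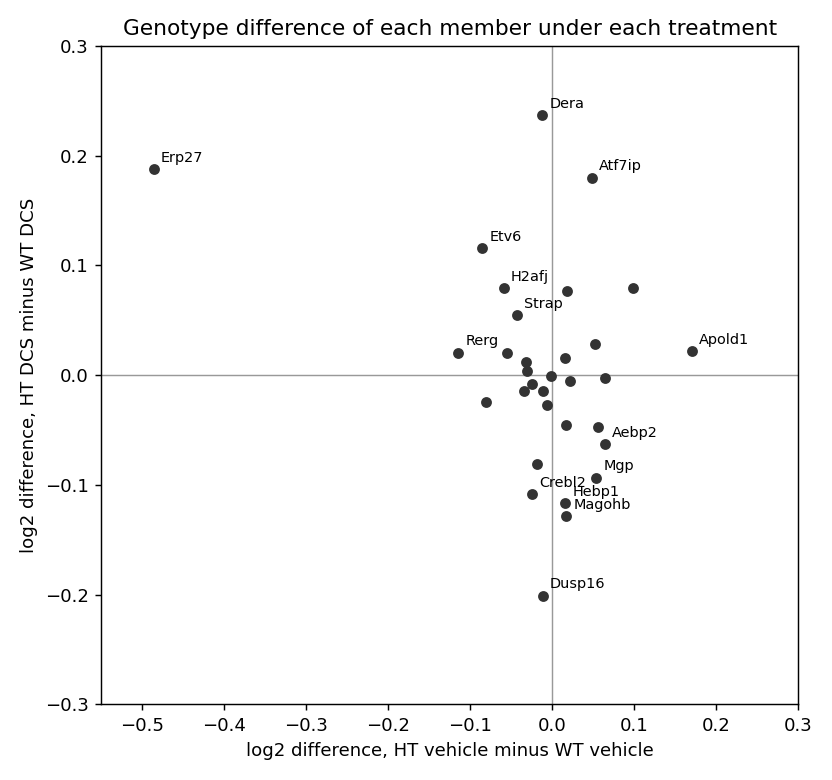
Log2 difference of HT DCS from WT DCS (y axis) against that of HT vehicle from WT vehicle (x axis) for the 32 flanking genes (points). Dusp16 is lowest on the y axis at -0.20 and near 0 on the x axis, Erp27 lies at -0.49 on the x axis, and Etv6 and Aebp2 stand in opposite quadrants.

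DCS was also set against vehicle within each genotype. In HT mice, 0 of 32 flanking genes passed (limma; 0% of all genes) and 1 had an unadjusted p under 0.05, or 3.12% against 4.8% of all genes. This was Ptpro, at 2148, 2284 and 2405 as lowest, median and highest in HT DCS, against 2015, 2114 and 2323 in HT vehicle (log2 difference 0.093 ± 0.042 SE; limma, adjusted p = 0.973). In WT mice, 0 of 32 passed (limma; 0% of all genes) and 3 had an unadjusted p under 0.05, all lower under DCS, or 9.38% against 2.88% of all genes. These were Etv6, Atf7ip and Rerg, and the count was 0 without WT DCS replicate 3. Atf7ip had 2823, 2842, 2858, 3475 and 3550 in WT DCS, against a lowest, median and highest of 3124, 3526 and 4705 in WT vehicle. Rerg had 293.1, 299.2, 304.9, 311.3 and 336.3 in WT DCS, against 333.5, 340.7 and 353.2 in WT vehicle. The WT vehicle libraries of Rerg lay close together, with an SD of 8.89 against 16.7 in WT DCS, and 4 of 5 WT DCS libraries lay under all of them. The log2 differences were -0.24 ± 0.098 (SE) for Atf7ip, -0.15 ± 0.063 for Rerg and -0.14 ± 0.056 for Etv6 (limma, adjusted p = 1 for each). The ranges of DCS and vehicle libraries were separate for 0 of 32 genes in either genotype, against 0.127% of all genes in HT and 0.33% in WT. The same WT vehicle libraries enter the genotype comparison, in which Rerg had a log2 difference of -0.11 ± 0.060 (SE; limma, adjusted p = 0.999) with 5 of 6 HT vehicle libraries under every WT vehicle library.

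The table held 14 other genes in the same stretch of chromosome 6 with a mean of at least 10, most of them low. For HT against WT over both treatments 0 of 14 passed (limma; 0% of all genes), 6 were higher and 8 lower, and 2 had an unadjusted p under 0.05, both lower, or 14.3% against 7.17% of all genes. Between HT vehicle and WT vehicle the share was again 14.3%, against 4.22% of all genes, and between HT DCS and WT DCS it was 0 of 14, against 7.55%. The 3 with the smallest p were Smco3, Igbp1b and Gucy2c. Unadjusted p was 0.0167 for Smco3 and 0.0301 for Igbp1b, both below the 0.0357 of Dusp16 (limma). Smco3 had means of 195.2 in HT and 223.1 in WT (log2 difference -0.18 ± 0.071 SE; limma, adjusted p = 0.636). By group its means were 187.9 in HT DCS, 202.6 in HT vehicle, 203 in WT DCS and 239.9 in WT vehicle. Within WT, DCS against vehicle gave a log2 difference of -0.24 ± 0.10 (SE). Igbp1b had 10.5 in HT and 14.5 in WT, and the guanylate cyclase gene Gucy2c 23.6 in HT and 27.5 in WT. On the rest of chromosome 6, 0 of 830 genes passed (limma) and 57 had an unadjusted p under 0.05, or 6.87%, with a median log2 difference of -0.0014.

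Variation of neighbouring genes from library to library was compared as well. Taking each value as a deviation from its group mean over 23 libraries, the 31 pairs of adjacent genes had a median Pearson r of 0.03, between -0.50 and 0.53, and all 496 pairs a median of 0.01. The highest were Dusp16 with Crebl2 (r = 0.53, Spearman coefficient = 0.61; permutation p = 0.00913 and 0.00257; adjusted over 31 pairs 0.143 and 0.0797) and Hebp1 with Fam234b (r = 0.53, Spearman coefficient = 0.43; permutation p = 0.00925 and 0.043; adjusted 0.143 and 0.266). Without the 2 farthest libraries r was 0.60 for Dusp16 with Crebl2 and 0.41 for Hebp1 with Fam234b, and neither pair passed the adjustment. Hebp1 and Fam234b are the pair whose heads overlap in the sequence shown above. The kit keeps the strand, but whether the counting used it is not given in the sources used here, so genes that overlap one of the opposite strand are uncertain there. Of the 32, 12 do. Coding genes are involved for Hebp1 and Fam234b, for Fam234b also Gsg1, for Wbp11 BC049715 and for Arhgdib Pde6h. The other 8 (Etv6, Mansc1, Dusp16, Gpr19, Atf7ip, H2afj, Lmo3 and Pde3a), and Grin2b itself, overlap genes not annotated as coding. Across all genes, those most like Dusp16 were Kcnj9 (r = 0.84), Tvp23a (0.78) and Pomt2 (0.74), and those most like Fam234b were Lzts3 (0.88), Nkx6-2, an oligodendrocyte gene (0.87), and Cbx7 (0.86), as Pearson r of deviations over 23 libraries that share tissue makeup and depth.

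For 3 flanking genes known from particular cells, values were set against markers of those cells within groups. Apold1, an endothelial gene that is itself induced by stimulation, moved with the mean of 14 activity-induced early genes (r = 0.86, Spearman coefficient = 0.87; permutation p = 1e-05 for each, the smallest these permutations can give; adjusted 4e-05 over 4 relations) and with 10 endothelial markers (r = 0.54, Spearman coefficient = 0.56; permutation p = 0.00734 and 0.00593; adjusted 0.00979 and 0.00791). Without the 2 farthest libraries r was 0.83 for the early genes and 0.61 for the endothelial markers. Apold1 had 146.6, 187.0 and 267.2 in HT DCS, 137.3, 224.2 and 293.4 in HT vehicle, 143.1, 177.0, 194.4, 223.6 and 242.9 in WT DCS, and 142.8, 180.1 and 236.7 in WT vehicle. The groups overlapped throughout. The summed early genes, all 14 of them read in every library, ran between 14710 and 29710 in HT DCS, 16770 and 32160 in HT vehicle, 17460 and 29000 in WT DCS, and 13650 and 32960 in WT vehicle.

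Arhgdib, a gene of blood-derived cells and microglia, moved with 10 microglia markers (r = 0.75, Spearman coefficient = 0.72; permutation p = 5e-05 and 0.00017; adjusted 1e-04 and 0.00034 over 4 relations), with r = 0.63 without the 2 farthest libraries. In bulk tissue, fewer cells of a type and less RNA per cell cannot be told apart. The microglia sum, with 10 of 10 markers read in every library, ran between 3915 and 6478 in HT DCS, 3950 and 6174 in HT vehicle, 3420 and 6800 in WT DCS, and 3647 and 6234 in WT vehicle. Arhgdib means were 207.7 ± 21.5 in HT DCS, 213.3 ± 22.9 in HT vehicle, 209.8 ± 35.5 in WT DCS and 210.1 ± 23.8 in WT vehicle (SD, n = 6, 6, 5 and 6). Mgp, known from vessel walls and meninges, did not follow 12 meningeal fibroblast markers detectably (r = 0.07, Spearman coefficient = 0.16; permutation p = 0.745 and 0.46; adjusted 0.745 and 0.46). Without the 2 farthest libraries r was -0.17. Mgp was not set against the pericyte and smooth muscle markers.

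**Figure D5:**
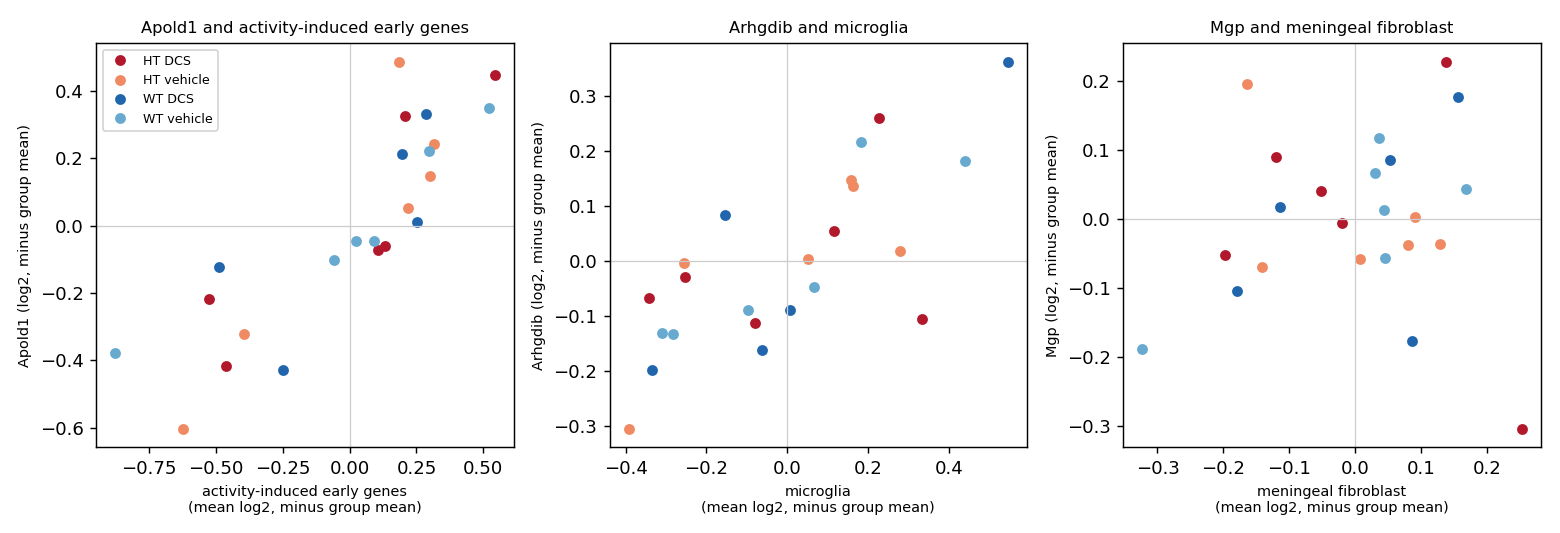
Apold1, Arhgdib and Mgp (y axes, log2 minus group mean) against the mean log2 value of activity-induced early genes, microglia markers and meningeal fibroblast markers (x axes, minus group mean) in 23 libraries, coloured by group. Pearson r is 0.86, 0.75 and 0.07 from left to right, and libraries of all 4 groups lie along the first 2 trends.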

How the data were processed

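Per the labels, the kit for the brain RNA libraries was a stranded one for mRNA. The deposited values, for 18848 genes in 23 libraries, are a signal: read counts that the authors scaled between libraries, with decimals and near-equal totals. Tools in the submitters' processing notes are DESeq2 1.26.0, R 3.6.2 and Salmon 1.1.0, and the build is GRCm38; neither roles nor order are stated. Of low values, 56.7% to 76.8% per library lay within 0.15 of a whole multiple of one step, so whole reads were not recovered.

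Coordinates are those of GENCODE M21 (GRCm38). limma 3.58.1 (R 4.3.3) was run on log2(value + 1) with 4 group means, a trended and robust prior, and two-sided tests of 6 contrasts. P-values were adjusted by Benjamini-Hochberg across 17256 genes whose mean reached 10, with a threshold of 0.05. The procedure was tested on simulated counts drawn independently for each gene and library, which does not cover shared tissue makeup or batches. Correlations used 100000 permutations. The genes and lists were chosen with earlier results of these data known. Library values are given for the 6 flanking genes with the smallest p for HT against WT, the 3 nearest on each side, Grin2b, and genes with a far library. Apold1, Etv6, Erp27, Ptpro, Rerg, Aebp2 and the role groups were added after their values were seen. Alternatives were pseudocounts of 0.5 and 5, other filters, quantile scaling, no trend, only the groups compared, replicate blocks, a term for replicate numbers 1 to 3 against 4 to 6, and leaving out each library. The sequence around the altered codon is not reported here.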

Additional observations from a re-analysis of the deposited data

Results flagged for a closer look

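A library stood far from the rest of its group in 7 of 132 checks (33 genes, 4 groups each, Dixon's criterion at 95%), where chance gives about 6.6. Grin2b was low in HT vehicle replicate 6, at 14620 against 18070 to 19880 in the other HT vehicle libraries, and Fam234b was low in the same library, at 5566 against 6055 to 6240. Mgp was high in HT vehicle replicate 4 (784.9, others 653.2 to 686.8). In HT vehicle replicate 5, Eps8 was high (2338, others 2044 to 2142) and Arhgdib low (171.6, others 211.7 to 235.1). Lmo3 was low in HT DCS replicate 3 (2828, others 3192 to 3344) and in WT DCS replicate 2 (2686, others 3053 to 3181).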

How the results depend on the processing

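In each of the 6 comparisons, 0 of the flanking genes passed adjusted p 0.05 under any other setting (9 where all 4 groups enter, otherwise 10), or without any 1 library of the groups compared, and the median log2 difference moved by less than its spread between libraries (0.022, SD). That spread is of single libraries, so it is a loose bound for leaving out 1 of them. Over all genes, HT against WT had 6 calls with either replicate block, 4 with replicate numbers 1 to 3 against 4 to 6 as a term and 2 with quantile scaling. For HT against WT over both treatments the median of the flanking genes lay between -0.013 and -0.0071 under the other settings and between -0.015 and 0.0006 without 1 library. Its sign thus turned without HT DCS replicate 6, and also, to 1e-04, without HT DCS replicate 4. The unadjusted count for that comparison lay between 0 and 2, for HT vehicle against WT vehicle between 0 and 4 (4 without HT vehicle replicate 6, beside 6.16% of all genes), for HT DCS against WT DCS between 1 and 6 (6 without WT DCS replicate 4, beside 8.76%), for DCS in HT between 0 and 5 (5 without HT vehicle replicate 6, beside 7.44%), for DCS in WT between 0 and 4 (0 without WT DCS replicate 3, beside 2.89%, and 4 without WT DCS replicate 5, beside 3.2%) and for the interaction between 2 and 5 (5 without HT vehicle replicate 6, beside 6.59%); the causes were not tested. Of the 11 genes followed this way, signs turned for Emp1, H2afj and Grin2b. Emp1 stood at 0.018 with the replicate block by description numbers and 0.0076 with a term for replicate numbers 1 to 3 against 4 to 6, and without 1 library it lay between -0.050 and 0.042. H2afj lay between -0.017 and 0.047, and Grin2b between -0.015 and 0.053 (lowest without WT DCS replicate 2). With the replicate number as a block, Dusp16 was -0.098 by title numbers and -0.11 by description numbers. Same-numbered libraries correlated over 0.1 in 4 of 33 pairs by either numbering. Their r had a median of 0.01, and ran between -0.07 and 0.30 by title numbers and between -0.11 and 0.30 by description numbers. Whether same-numbered libraries share a batch was not tested. Fitting only the groups compared does not apply to the 2 comparisons that use all 4 groups.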
